A study of Mus musculus with 12 samples.

Results

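Mature dentate granule cell markers are described here, a set of 10 genes (Prox1, C1ql2, Dsp, Tdo2, Plk5, Stxbp6, Lct, Npnt, Trpc6 and Calb1). They were taken by symbol from a gene table of mouse hippocampus. All 10 were among its 36119 genes, and all 10 had a mean of at least 1 TPM (a level scaled for transcript length and for the library's total) and so were among the 14947 genes tested. The table holds 12 libraries of total RNA, depleted of ribosomal RNA, from adult C57BL/6 mice killed on postnatal day 70, with 3 libraries in each of 4 groups. Enriched ethanol and standard ethanol mice had received ethanol under the skin at 2.5 g/kg, as 2 injections with 2 hours between them, on postnatal days 6 and 7, and enriched saline and standard saline mice had received saline in the same way. From day 21 the enriched ethanol and enriched saline mice lived in large cages of 2 to 6 littermates of the same sex, with running wheels, toys and added nest material, and the standard ethanol and standard saline mice lived in standard cages. The labels call the exposure prenatal, although every injection was given after birth. The series sets early alcohol, a model of fetal alcohol spectrum disorder, beside later enrichment.

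Granule cells are the principal neurons of the dentate gyrus, the entry gate of the hippocampal circuit. They receive input from the entorhinal cortex and send mossy fibres to the pyramidal cells of CA3. In rodents new granule cells are born throughout adult life, express genes such as doublecortin (Dcx) while immature, and take on markers such as calbindin once mature. Running and enriched housing are known to act on this neurogenesis in mice, and ethanol given to mouse pups is known to kill developing neurons. In bulk tissue, fewer cells of a type and less RNA per cell cannot be told apart.

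The markers differ in role and in level. Calb1, the calcium buffer calbindin, had the highest mean over the 12 libraries at 62.1 TPM. It was followed by C1ql2, a secreted C1q-like protein of mossy fibre synapses, at 53.7 TPM, by Stxbp6 (amisyn), which binds the proteins of vesicle fusion, at 45.6 TPM, and by the cation channel gene Trpc6 at 36.4 TPM. Prox1, the homeobox transcription factor that sets granule cell identity, averaged 27.5 TPM. Lct, which encodes lactase, averaged 17.8 TPM, Dsp, which encodes the desmosome protein desmoplakin, 17.0 TPM, and Plk5, a polo-like kinase family member, 11.5 TPM. Npnt, the matrix protein nephronectin, averaged 9.45 TPM, and Tdo2, a dioxygenase that opens the kynurenine pathway of tryptophan breakdown, 7.33 TPM. No marker was near 0 in any library, and the lowest single value was 4.95 TPM, for Tdo2. The genes are not confined to granule cells. Calb1 is also made by CA1 pyramidal cells and interneurons, and Prox1 by some interneurons.

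All 10 are protein-coding genes. On GRCm38 (GENCODE M21), Prox1 lies on chromosome 1 from 190118035 to 190170714, C1ql2 on chromosome 1 from 120340582 to 120343174, Lct on chromosome 1 from 128284756 to 128328318, Dsp on chromosome 13 from 38151294 to 38198577 and Plk5 on chromosome 10 from 80356459 to 80365489. Trpc6 lies on chromosome 9 from 8544142 to 8680741, Stxbp6 on chromosome 12 from 44852484 to 45074709, Npnt on chromosome 3 from 132881745 to 132950291, Tdo2 on chromosome 3 from 81957090 to 81976202 and Calb1 on chromosome 4 from 15881264 to 15908064. Prox1 overlaps 2 antisense genes, Prox1os and Gm28172, and genes on the other strand also overlap Trpc6 (Gm32014), Dsp (Gm10129), Npnt (Gm23196) and Stxbp6 (Gm15901). Stxbp6 holds a further gene on its own strand, Gm15902. Of these, only 1 of the 2 genes that overlap Stxbp6 was among the 36119 genes of the series. None was examined on its own here. The libraries were made with a kit that keeps strand, and whether counting used it is not stated, so reads of these markers and of the genes that overlap them may not have been set apart.

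RefSeq promoter windows (250 bases before to 50 after the annotated start, GRCm38.p6) were given for 9 of the 10 markers, in 11 windows. No window of Calb1 was used. Those of Trpc6, C1ql2, Plk5 and Dsp are shown because these genes had the 4 smallest p values for ethanol in standard cages, and that of Prox1 because it did not share their pattern. They are printed 5′ to 3′ on the gene's strand, with any match to a searched motif in capitals. The windows are chr9:8543892-8544191 (plus strand) for Trpc6, chr1:120340332-120340631 (plus) for C1ql2, chr10:80356209-80356508 (plus) for Plk5, chr13:38151044-38151343 (plus) for Dsp and chr1:190170778-190171077 (minus) for Prox1.
Trpc6: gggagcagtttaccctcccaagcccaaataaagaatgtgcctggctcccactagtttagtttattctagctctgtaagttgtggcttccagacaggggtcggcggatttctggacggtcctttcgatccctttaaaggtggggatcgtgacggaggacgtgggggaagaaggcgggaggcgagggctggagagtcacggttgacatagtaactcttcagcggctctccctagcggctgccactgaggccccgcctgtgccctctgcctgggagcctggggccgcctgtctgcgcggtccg
C1ql2: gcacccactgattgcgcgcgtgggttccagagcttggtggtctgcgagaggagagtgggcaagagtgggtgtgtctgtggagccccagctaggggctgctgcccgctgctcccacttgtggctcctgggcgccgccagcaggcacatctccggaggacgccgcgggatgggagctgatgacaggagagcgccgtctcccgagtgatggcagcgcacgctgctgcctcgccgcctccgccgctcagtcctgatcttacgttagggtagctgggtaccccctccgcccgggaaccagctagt
Plk5: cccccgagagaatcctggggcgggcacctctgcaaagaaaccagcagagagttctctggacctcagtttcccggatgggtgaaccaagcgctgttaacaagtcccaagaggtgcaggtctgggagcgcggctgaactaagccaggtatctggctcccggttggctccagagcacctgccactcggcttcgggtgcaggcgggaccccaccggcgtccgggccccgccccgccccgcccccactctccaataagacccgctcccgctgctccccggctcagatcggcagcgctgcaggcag
Dsp: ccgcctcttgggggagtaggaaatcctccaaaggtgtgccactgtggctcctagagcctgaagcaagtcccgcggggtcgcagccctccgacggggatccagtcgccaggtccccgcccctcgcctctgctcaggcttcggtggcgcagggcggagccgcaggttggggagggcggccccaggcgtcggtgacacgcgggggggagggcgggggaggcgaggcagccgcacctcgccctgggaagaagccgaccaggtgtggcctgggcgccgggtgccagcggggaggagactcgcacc
Prox1: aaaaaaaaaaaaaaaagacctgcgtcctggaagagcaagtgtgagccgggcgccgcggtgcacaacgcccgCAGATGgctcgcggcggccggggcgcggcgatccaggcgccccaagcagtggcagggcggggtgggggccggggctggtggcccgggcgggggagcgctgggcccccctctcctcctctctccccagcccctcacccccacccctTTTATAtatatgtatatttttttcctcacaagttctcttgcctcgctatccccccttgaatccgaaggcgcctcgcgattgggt

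The motifs searched on both strands were the E-box form CAGATG, the cAMP response element TGACGTCA and TATAAA. The CAGATG form was in 1 of the 11 windows, the one printed for Prox1, and in 17.2% of all 32817 windows of the same length. TATAAA or its complement was in 2 of the 11 windows, those of Prox1 (printed) and Tdo2, and in 13.6% of all windows. TGACGTCA was in 0 of the 11 windows and in 1.79% of all windows. The CAGATG of Prox1 starts 179 bases and its TATAAA complement 34 bases before the annotated start. The windows of Trpc6, C1ql2, Plk5 and Dsp held none of the 3 motifs.

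The libraries were alike in scale, with column sums between 973187 and 1024536 and median ratios to their geometric mean between 0.995 and 1.01. A few stood apart in cell type markers. Standard saline replicate 2 had the highest value of 8 of the 10 granule cell markers and all 10 above their 12-library means, by 0.60 on the log2 scale on average. In the same library the list means were -0.81 for striatum, -0.73 for meningeal fibroblasts, -0.55 for neocortex and subiculum and -0.51 for myelin. Choroid plexus markers summed to 7788 TPM in enriched saline replicate 2, to 430 TPM in standard ethanol replicate 1 and to no more than 138 TPM in the other 10 libraries. Markers of CA1, CA2 and CA3 were present in every library, with sums between 284 and 390 TPM for CA1, 420 and 521 TPM for CA2 and 151 and 185 TPM for CA3. For the granule cell markers, limma results that rest on the libraries that stood apart are given with and without them. The results of the other marker lists are given with all 12 libraries only. Leaving out standard saline replicate 2, enriched saline replicate 2 and standard ethanol replicate 1 together was a setting chosen after the data were seen.

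**Figure D1:**
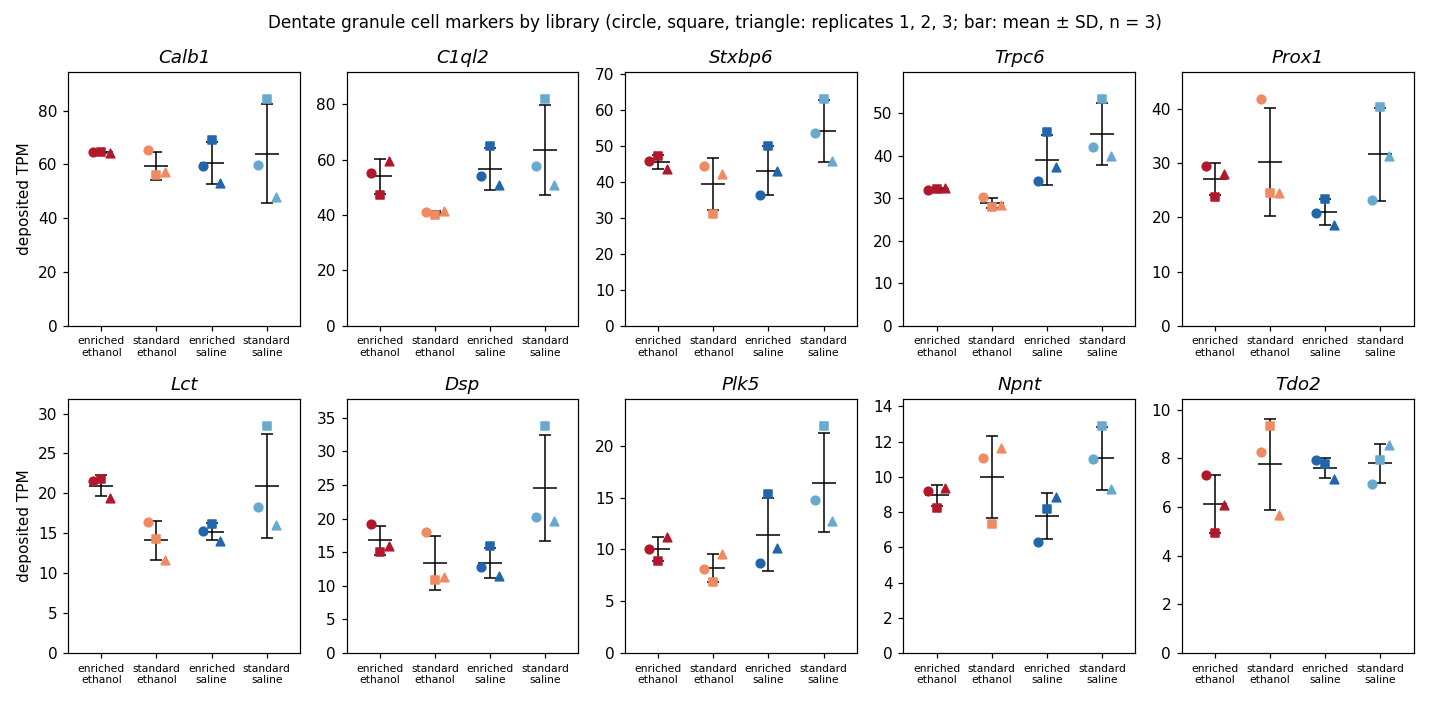
Deposited TPM (vertical axes, from 0) of each marker in the 12 libraries, by group. Symbols stand for replicates and bars for the mean ± SD of 3 libraries; standard saline replicate 2 (square) is the highest library for 8 of the 10 markers, and the 6 ethanol libraries of Trpc6 all lie below the 6 saline libraries.

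Trpc6 separated the ethanol from the saline mice in both kinds of cage. It was at 32.04, 32.2 and 32.6 TPM in enriched ethanol, 30.3, 28.0 and 28.6 TPM in standard ethanol, 34.2, 45.6 and 37.5 TPM in enriched saline, and 42.1, 53.4 and 40.0 TPM in standard saline libraries. All 6 ethanol libraries lay below all 6 saline libraries, which was so for 0.261% of the genes tested. Averaged over housing the log2 fold change for ethanol was -0.44 (SE 0.08), with an unadjusted limma p of 1.80e-04 that ranked 11 among 14947 genes and did not pass after Benjamini-Hochberg adjustment over all of them (limma adjusted p = 0.244). Over 21 other settings the value lay between -0.49 and -0.34 and the limma adjusted p between 0.185 and 0.460. The ethanol libraries were also close together, with a coefficient of variation of 0.837% in enriched ethanol and 4.22% in standard ethanol, against 15.1% in enriched saline and 15.9% in standard saline libraries. That difference in spread was not tested.

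C1ql2 was lowest in standard ethanol mice. It was at 55.2, 47.0 and 59.4 TPM in enriched ethanol, 41.1, 39.8 and 41.3 TPM in standard ethanol, 53.9, 65.1 and 50.8 TPM in enriched saline, and 57.8, 81.8 and 50.7 TPM in standard saline libraries. The 3 standard ethanol libraries lay below the other 9, and the other 3 groups overlapped one another. How common such a separation is among all tested genes was not counted. Lct was higher in enriched than in standard ethanol mice. It was at 21.6, 21.8 and 19.4 TPM in enriched ethanol, 16.4, 14.3 and 11.6 TPM in standard ethanol, 15.3, 16.2 and 14.1 TPM in enriched saline, and 18.3, 28.4 and 16.1 TPM in standard saline libraries. Enriched ethanol lay above standard ethanol and enriched saline without overlap, while standard saline reached both above the enriched ethanol libraries and into the enriched saline range.

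Dsp and Plk5 were highest in standard saline mice. Dsp was at 19.2, 15.1 and 15.95 TPM in enriched ethanol, 18.0, 10.8 and 11.3 TPM in standard ethanol, 12.8, 15.9 and 11.5 TPM in enriched saline, and 20.3, 33.7 and 19.7 TPM in standard saline libraries. The 3 standard saline libraries lay above the other 9. How common this is among all tested genes was not counted. Plk5 was at 10, 8.87 and 11.2 TPM in enriched ethanol, 8.07, 6.88 and 9.60 TPM in standard ethanol, 8.72, 15.4 and 10.1 TPM in enriched saline, and 14.8, 21.9 and 12.7 TPM in standard saline libraries. Enriched saline replicate 2 reached into the standard saline range for Plk5, and the other 8 libraries outside standard saline did not.

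Prox1 did not follow Dsp and Plk5 in standard cages, where its ethanol and saline ranges overlapped. It was at 29.5, 23.8 and 28.0 TPM in enriched ethanol, 41.9, 24.4 and 24.4 TPM in standard ethanol, 20.8, 23.4 and 18.7 TPM in enriched saline, and 23.2, 40.4 and 31.4 TPM in standard saline libraries. Standard ethanol replicate 1 held the highest value of the series, above standard saline replicate 2. Without standard ethanol replicate 1 the log2 fold change of Prox1 for ethanol in standard cages was -0.33. It was 0.11 without standard saline replicate 2. The 3 enriched saline libraries were low and lay below the enriched ethanol libraries without overlap. In standard ethanol replicate 1 the thalamus and habenula list had a mean of 0.02 above its 12-library mean (log2 scale), and the choroid plexus list 1.09 above. The choroid plexus list was highest in enriched saline replicate 2, at 3.98 above, where Prox1 was at 23.4 TPM. The part of either list in the Prox1 values was not tested.

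The other 4 markers moved less between groups. Stxbp6 averaged 45.6 ± 1.87 TPM in enriched ethanol, 39.4 ± 7.20 TPM in standard ethanol, 43.2 ± 6.73 TPM in enriched saline and 54.2 ± 8.69 TPM in standard saline mice (SD, n = 3 each). Its standard saline range, 45.7 to 63.1 TPM, lay above the standard ethanol range of 31.2 to 44.6 TPM. Npnt averaged 8.95 ± 0.613 TPM in enriched ethanol, 9.998 ± 2.33 TPM in standard ethanol, 7.79 ± 1.32 TPM in enriched saline and 11.1 ± 1.79 TPM in standard saline mice (SD, n = 3 each). Here the enriched saline libraries (6.31 to 8.85 TPM) lay below the standard saline libraries (9.29 to 12.9 TPM). Calb1, the standard protein marker of mature granule cells, averaged 64.4 ± 0.265 TPM in enriched ethanol, 59.5 ± 5.18 TPM in standard ethanol, 60.5 ± 7.97 TPM in enriched saline and 64.0 ± 18.5 TPM in standard saline mice (SD, n = 3 each), and all 4 group ranges overlapped. Tdo2 averaged 6.12 ± 1.19 TPM in enriched ethanol, 7.76 ± 1.87 TPM in standard ethanol, 7.62 ± 0.415 TPM in enriched saline and 7.81 ± 0.797 TPM in standard saline mice (SD, n = 3 each), and all 4 group ranges overlapped.

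**Figure D2:**
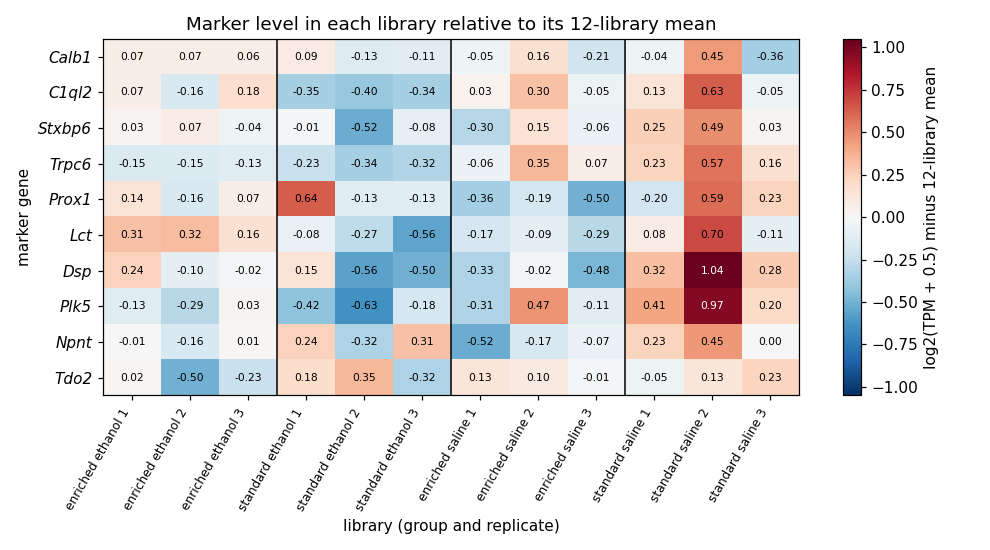
Level of each marker (rows, from the highest to the lowest mean level) in each library (columns, by group) as log2(TPM + 0.5) minus the marker's 12-library mean. Standard saline replicate 2 is above the mean in all 10 rows, and standard ethanol replicates 2 and 3 are each below it in 9.

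Within the groups the markers tended to move together from library to library. After removal of the group means, the correlation of a marker with the mean of the other 9 over the 12 libraries was 0.93 for Dsp, 0.89 for Trpc6, 0.88 for Calb1, 0.84 for C1ql2, 0.77 for Lct, 0.74 for Plk5 and 0.73 for Prox1 and Stxbp6. It was 0.54 for Npnt and 0.05 for Tdo2. Without standard saline replicate 2 these values were between 0.39 and 0.88, except for Tdo2 at 0.02. They are descriptions, since the points share the libraries and their tissue composition. Of the 14099 other tested protein-coding genes, the 8 closest to the mean of the markers by the same measure were Rfx3, Eftud2, Gtf3c2, Pter, Icmt, Acvr1c, Tmem108 and Slc2a13 (Pearson r from 0.92 to 0.97, Spearman rho from 0.78 to 0.94, and Pearson r from 0.84 to 0.94 without standard saline replicate 2). Rfx3, a transcription factor gene at 55.7 TPM and the closest of all, was also on the list of 13 further dentate granule cell genes used below.

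Early ethanol was first compared with saline in standard cages. The log2 fold change of the granule cell markers, ethanol over saline, was below 0 for 10 of the 10, with a median of -0.49, where the median of all tested genes was 0.00. At an unadjusted limma p under 0.05, 6 markers were lower (Trpc6, Plk5, C1ql2, Dsp, Stxbp6 and Lct), against a background of 3.64% of tested genes, and 0 were higher, against 3.75%. For 5 of these 6, all but Lct, every ethanol library lay below every saline library, as for 5.99% of tested genes. None passed the limma test after adjustment over all genes, which 0.0134% of tested genes did.

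The 2 largest differences in standard cages were those of Plk5 and Dsp. Plk5 differed by -0.94 on the log2 scale (SE 0.23; limma adjusted p = 0.271), with a mean of 8.19 ± 1.36 TPM in ethanol and 16.5 ± 4.82 TPM in saline mice (SD, n = 3 each). Dsp differed by -0.85 (SE 0.23; limma adjusted p = 0.397), with 13.4 ± 4.02 TPM in ethanol and 24.6 ± 7.93 TPM in saline mice. Trpc6 had the smallest p of the set, at -0.62 (SE 0.12; limma adjusted p = 0.259), and C1ql2 had -0.60 (SE 0.15; limma adjusted p = 0.338). The fold changes of Lct and Stxbp6 were -0.52 and -0.46 (SE 0.18 and 0.15). Those of Npnt, Prox1, Calb1 and Tdo2 were -0.15, -0.08, -0.07 and -0.03, each smaller than its SE.

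The difference was smaller without standard saline replicate 2. Then 8 markers were below 0, the median was -0.32, and 4 of the 6 markers (C1ql2, Dsp, Plk5 and Trpc6) still had an unadjusted limma p under 0.05, against 4.02% of tested genes lower. Trpc6 was then at -0.50, Plk5 at -0.72, Dsp at -0.60 and C1ql2 at -0.41, while Prox1 and Calb1 were at 0.11 and 0.15. Without standard saline replicate 2, enriched saline replicate 2 and standard ethanol replicate 1, a setting chosen after the data were seen, the same 6 markers as in all 12 libraries were lower at an unadjusted limma p under 0.05, against 3.85% of tested genes.

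**Figure D3:**
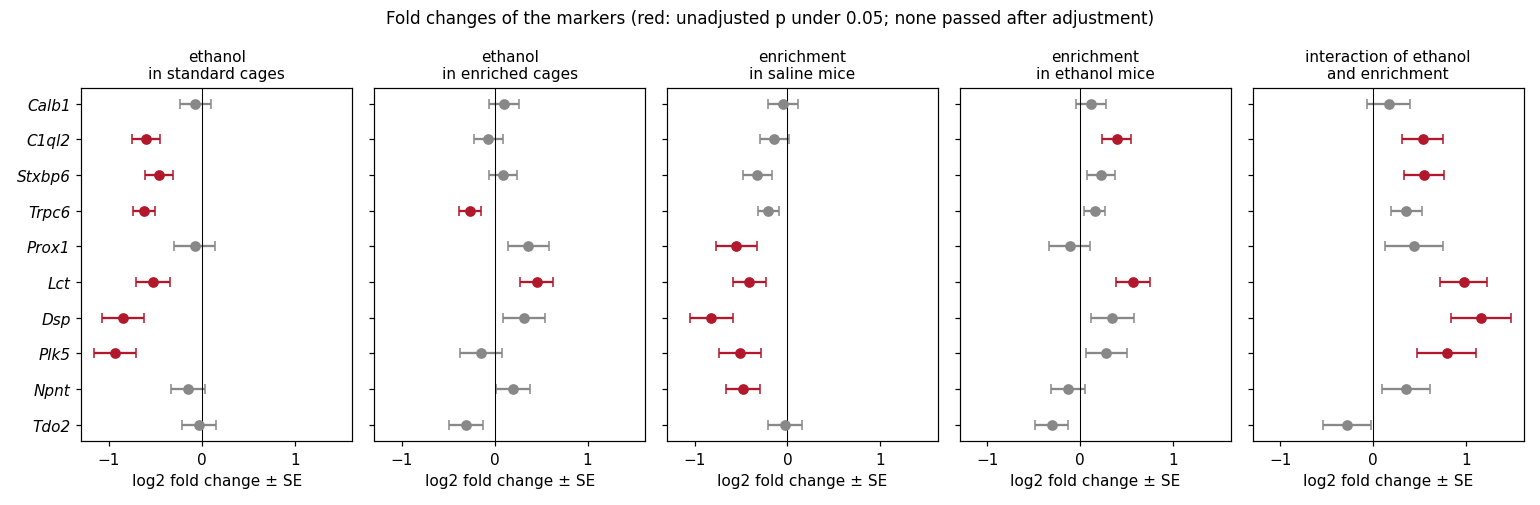
Log2 fold change ± SE of each marker (limma on log2(TPM + 0.5), 3 libraries a group) for the 4 comparisons of 2 groups and for the interaction; red marks an unadjusted p under 0.05. In standard cages all 10 ethanol values are below 0, and the interaction is above 0 for 9 of 10.

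Gene lists of other cell types were set beside the markers in the same comparison. After adjustment the limma test passed 0 of their genes. Of 13 further dentate granule genes 11 were below 0 (median -0.18), and 2 were lower at an unadjusted limma p under 0.05, against 3.64% of tested genes. These were the opioid precursor gene Penk (-0.39) and the transcription factor gene Glis3 (-0.42). Immature neuron genes went the other way, with 6 of the 6 tested above 0. Of these, 5 had an unadjusted limma p under 0.05, led by Dpysl3 (0.51), against 3.75% of tested genes higher. Their summed level over the 8 listed genes was 120 to 122 TPM in standard ethanol and 81.2 to 90.7 TPM in standard saline mice, and of the 8 only Neurod4 was at 0 in any library, in 1 of 12. Dpysl3 and Calb2 had the highest means of the 8, at 34.6 and 33.6 TPM, and Calb2 was also listed as a mossy cell gene. Myelin genes were above 0 in 8 of 8, with sums of 5494 to 5803 TPM in standard ethanol and 3314 to 5681 TPM in standard saline mice, and none was at 0. Meningeal fibroblast genes were above 0 in 6 of 6, with sums of 102 to 136 TPM in standard ethanol and 61.6 to 76.9 TPM in standard saline mice, and none was at 0. CA1 and CA3 genes had medians of 0.10 and 0.03, with 4 of 6 and 3 of 6 above 0. The part of these cell types in the values of the granule cell markers was not tested.

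**Figure D4:**
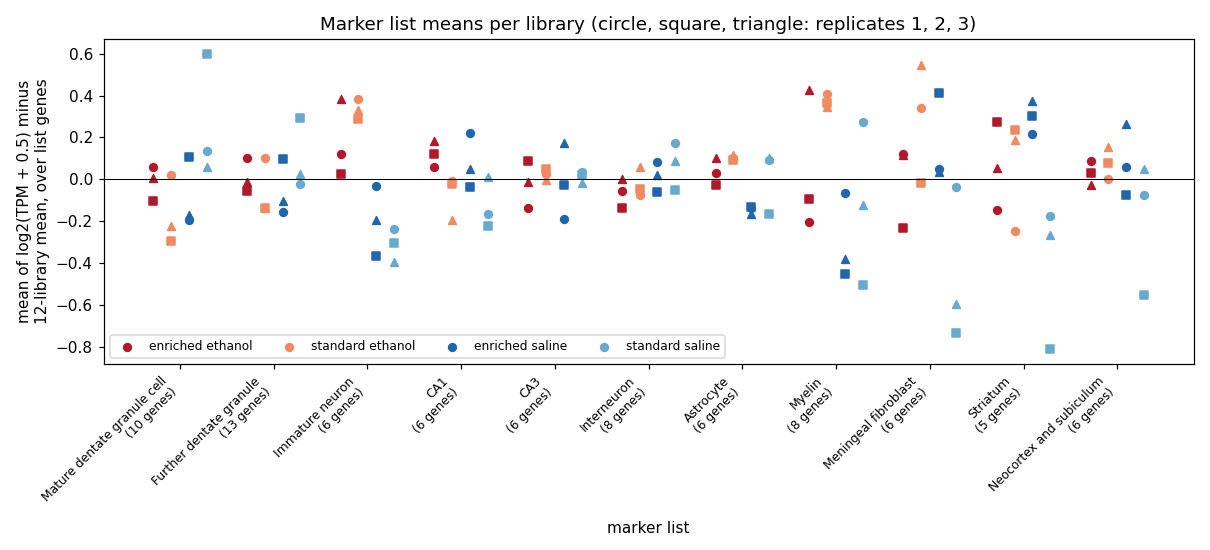
Mean of log2(TPM + 0.5) minus the 12-library mean over the tested genes of each marker list (vertical axis), per library and group. Mature granule cell markers are highest in standard saline replicate 2 (0.60), where the striatum, myelin, meningeal and neocortex lists are lowest; the immature neuron means of all 6 ethanol libraries lie above 0.

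In enriched cages the log2 fold change for ethanol was below 0 for 4 of the 10 markers and above 0 for 6, with a median of 0.09 (all tested genes, -0.01). At an unadjusted limma p under 0.05, 1 marker was lower, against 3.91% of tested genes, and 1 was higher, against 3.85%. The lower one was Trpc6 (-0.26, SE 0.12), with 32.3 ± 0.270 TPM in enriched ethanol and 39.1 ± 5.89 TPM in enriched saline mice. The higher one was Lct (0.45, SE 0.18), with 20.9 ± 1.31 TPM in enriched ethanol and 15.2 ± 1.08 TPM in enriched saline mice (SD, n = 3 each). Lct and Prox1 lay wholly above the enriched saline libraries in enriched ethanol, as did 7.78% of tested genes. The fold change of Prox1 was 0.36 (SE 0.22) and that of Dsp 0.32 (SE 0.23). After adjustment the limma test passed 0 markers and 0% of tested genes (limma adjusted p = 0.616 for Lct and 0.634 for Trpc6). The median lay between 0.02 without enriched saline replicate 1 and 0.20 without enriched saline replicate 2.

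Both markers under 0.05 in enriched cages depended on the settings. Lct had an unadjusted limma p over 0.05 when enriched ethanol replicate 1 or 2 or enriched saline replicate 1 or 3 was left out. Trpc6 did when any 1 ethanol library of either housing, or enriched saline replicate 2 or 3, was left out, and with no mean-variance trend, and it was at -0.15 without enriched saline replicate 2. With the 3 libraries that stood apart left out, 3 markers (Prox1, Dsp and Lct) were higher at an unadjusted limma p under 0.05, against 3.81% of tested genes, and 0 were lower, against 3.77%. With all 12 libraries, immature neuron genes were above 0 in 6 of 6 in enriched cages too (median 0.24). Of these, 2 had an unadjusted limma p under 0.05, against 3.85% of tested genes higher. Their sums were 95.5 to 118 TPM in enriched ethanol and 71.7 to 94.6 TPM in enriched saline mice. Myelin genes were above 0 in 8 of 8, with sums of 3956 to 5898 TPM in enriched ethanol and 3305 to 4116 TPM in enriched saline mice. The further granule genes had a median of 0.12, with 9 of 13 above 0 and 0 at an unadjusted limma p under 0.05.

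Enrichment was next compared with standard cages in mice given saline. In enriched saline mice 10 of the 10 had log2 fold changes below 0 against standard saline mice, with a median of -0.37 (all tested genes, 0.00). At an unadjusted limma p under 0.05, 5 were lower (Dsp, Npnt, Prox1, Plk5 and Lct), against 4.6% of tested genes, and 0 were higher, against 5.43%. Dsp had -0.82 (SE 0.23; limma adjusted p = 0.314), with 13.4 ± 2.27 TPM in enriched saline and 24.6 ± 7.93 TPM in standard saline mice (SD, n = 3 each). Prox1 had -0.55 (SE 0.22), Plk5 -0.51 (SE 0.23), Npnt -0.48 (SE 0.18) and Lct -0.41 (SE 0.18). Trpc6 and C1ql2, which were low in standard ethanol mice, had -0.20 and -0.14 (SE 0.12 and 0.15). The enriched saline libraries of Dsp and Npnt lay wholly below the standard saline libraries, as did those of 6.57% of tested genes. After adjustment the limma test passed 0 markers and 0.0268% of tested genes.

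Both comparisons against standard saline share those 3 libraries, so their agreement in sign is not independent. The count of 5 for enrichment was 1 when standard saline replicate 2 was left out (Dsp, with a median of -0.19) and 1 when enriched saline replicate 1 was. Without standard saline replicate 2, C1ql2 and Calb1 were at 0.05 and 0.17, and 4.75% of tested genes were lower at an unadjusted limma p under 0.05. The count was 2 with enriched saline replicate 3 left out, 3 with enriched ethanol replicate 1 left out, and 6 with enriched saline replicate 2 or standard saline replicate 3 left out. With the 3 libraries that stood apart left out it was 4 (Prox1, Dsp, Plk5 and Trpc6, against 4.7% of tested genes lower), with 9 of 10 markers below 0 and a median of -0.27. It was also 3 with equal column sums, with no filter on low genes, with no mean-variance trend and with only the 2 groups fitted, and 2 with a weight per library. Among other cell types in this comparison, CA1 genes were above 0 in 4 of 6, with sums of 337 to 390 TPM in enriched saline and 284 to 333 TPM in standard saline mice. Of the 6, 4 were higher and 1 lower at an unadjusted limma p under 0.05, against 5.43% and 4.6% of tested genes. Striatal genes were above 0 in 5 of 5, with sums of 65.5 to 87.4 TPM in enriched saline and 47.7 to 57.3 TPM in standard saline mice. Meningeal fibroblast genes were above 0 in 6 of 6 (median 0.54), with sums of 85.6 to 140 TPM in enriched saline and 61.6 to 76.9 TPM in standard saline mice. Choroid plexus genes were above 0 in 7 of 7 (median 1.18), with sums of 36.2 to 7788 TPM in enriched saline and 79.8 to 138 TPM in standard saline mice. Only enriched saline replicate 2 lay above the standard saline range of these sums. Enriched saline replicates 1 and 3, at 73.35 and 36.2 TPM, lay below it. Astrocyte genes were below 0 in 5 of 6, with sums of 1833 to 1931 TPM in enriched saline and 1982 to 2558 TPM in standard saline mice. No gene of these 5 lists was at 0. Of the 13 further granule genes 9 were below 0 (median -0.17), and 3 were lower at an unadjusted limma p under 0.05, against 4.6% of tested genes. Among these 3 was Dock10 (-0.32), a regulator of small GTPases. The part of these cell types and regions in the values of the granule cell markers was not tested.

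After early ethanol, enrichment was set against standard cages with other libraries on both sides. The log2 fold change was above 0 for 7 of the 10 granule cell markers, with a median of 0.19 (all tested genes, -0.01). Lct was at 0.56 (SE 0.18; limma adjusted p = 0.861), with 20.9 ± 1.31 TPM in enriched ethanol and 14.1 ± 2.40 TPM in standard ethanol mice. C1ql2 was at 0.39 (SE 0.15; limma adjusted p = 0.883), with 53.9 ± 6.31 TPM in enriched ethanol and 40.8 ± 0.803 TPM in standard ethanol mice (SD, n = 3 each). These were the 2 markers higher at an unadjusted limma p under 0.05, against 2.91% of tested genes, and 0 were lower, against 2.66%. The enriched ethanol libraries of C1ql2, Lct and Trpc6 lay wholly above the standard ethanol libraries, as did those of 6.07% of tested genes. Dsp, Plk5 and Stxbp6 had 0.35, 0.28 and 0.23 (SE 0.23, 0.23 and 0.15), and Tdo2, Npnt and Prox1 had -0.31, -0.13 and -0.11 (SE 0.18, 0.18 and 0.22). After adjustment the limma test passed 0 markers and 0.00669% of tested genes. The median was 0.10 without standard ethanol replicate 2, and the count of 2 was 1 without enriched ethanol replicate 1 or 3 or standard ethanol replicate 2. Standard saline replicate 2 is in neither group, and both markers had an unadjusted limma p under 0.05 when it was left out of the fit. With the 3 libraries that stood apart left out, 5 markers (C1ql2, Dsp, Stxbp6, Lct and Trpc6) were higher at an unadjusted limma p under 0.05, against 2.97% of tested genes. That setting was chosen after the data were seen. Myelin genes were below 0 in 8 of 8 in this comparison (median -0.34), and their part in it was not tested.

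The difference between the 2 ethanol effects, enriched minus standard cages, was above 0 for 9 of the 10 markers, with a median of 0.49 (all tested genes, -0.01). It is built from the 2 ethanol comparisons above and holds the same standard saline libraries, so its signs are not independent of theirs. At an unadjusted limma p under 0.05, 5 markers were above 0 (Lct, Dsp, Stxbp6, Plk5 and C1ql2), against 3.42% of tested genes, and 0 were below, against 3.99%. Dsp had 1.16 (SE 0.32; limma adjusted p = 0.530), Lct 0.97 (SE 0.26; limma adjusted p = 0.511) and Plk5 0.79 (SE 0.32). Stxbp6 and C1ql2 had 0.55 and 0.53 (SE 0.21 and 0.22), and Trpc6 0.36 (SE 0.16). After adjustment the limma test passed 0 markers and 0.0134% of tested genes, so the ethanol effects on single markers were not shown to differ between cages. Without standard saline replicate 2 the median was 0.29, and Dsp (0.92) and Lct (0.74) were the 2 markers above 0 at an unadjusted limma p under 0.05, against 3.67% of tested genes. The count was also 2 without standard ethanol replicate 2 or enriched saline replicate 1, and 3 without enriched saline replicate 3 or enriched ethanol replicate 3. With the 3 libraries that stood apart left out, 7 markers were above 0 at an unadjusted limma p under 0.05, against 4.05% of tested genes. That setting was chosen after the data were seen. In the further granule list 11 of 13 genes were above 0, with a median of 0.19 and 0 at an unadjusted limma p under 0.05. Lists of other cell types also had values away from 0 in the interaction, with 0 of their genes passing the limma test after adjustment. Meningeal fibroblast genes were below 0 in 6 of 6 (median -0.75, 3 at an unadjusted limma p under 0.05), choroid plexus genes in 7 of 7 (median -1.37, 0 at such a p) and striatal genes in 5 of 5 (median -0.38, 1 at such a p). The choroid plexus list was high in only 1 enriched saline library. Its mean was 3.98 in replicate 2, against -0.48 and -0.90 in replicates 1 and 3. Its interaction without that library is not given here. Immature neuron genes were below 0 in 6 of 6 (median -0.29, 2 at an unadjusted limma p under 0.05). Of all tested genes 3.99% were below 0 at such a p. The part of these cell types in the interaction of the granule cell markers was not tested.

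Averaged over housing, 3 markers were lower in ethanol than in saline mice at an unadjusted limma p under 0.05, against 4.05% of tested genes. These were Trpc6, Plk5 (-0.54, SE 0.16) and C1ql2 (-0.34, SE 0.11), and 0 were higher, against 3.97%. The median was -0.18, with 7 of 10 below 0 (all tested genes, 0.00), and after adjustment the limma test passed 0 markers and 0.0134% of tested genes. The same 3 markers had an unadjusted limma p under 0.05 without standard saline replicate 2 and with all 3 libraries that stood apart left out. Averaged over exposure, 1 marker was lower in enriched than in standard cages at an unadjusted limma p under 0.05, against 3.82% of tested genes. This was Npnt (-0.30, SE 0.13), and 0 were higher, against 4.14%. The median was -0.08 (all tested genes, 0.00), and after adjustment the limma test passed 0 markers and 0.0201% of tested genes. Without standard saline replicate 2 the median was 0.00 and Npnt was at -0.25, with an unadjusted limma p of 0.0906. C1ql2 was then at 0.22, with an unadjusted limma p of 0.0177. Npnt also had an unadjusted limma p over 0.05 without enriched ethanol replicate 1 or 2, standard ethanol replicate 1 or 3, enriched saline replicate 1 or standard saline replicate 1, with equal column sums, with library weights and with the 3 libraries that stood apart left out.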

How the data were processed

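The deposited table holds 1 value per gene and library, named by the authors as TPM. Column totals run from 973187 to 1024536, which shows that each carries a further factor from the authors, and the values were treated as a deposited signal in proportion to TPM. Per the submitters' processing notes CASAVA, kallisto and sleuth were used with build mm10, without versions or roles. How transcripts were summed to genes, and the annotation used, is not given in the sources used here. Read depth is unknown, so no counting interval is given. All 12 columns were matched to samples by name, with 0 left over. Litter and sex are not labelled per mouse, and the spread behind each p value is that among these libraries, which may be technical. Symbols came from GENCODE M21 (35827 of 36119 identifiers).

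limma 3.58.1 in R 4.3.3 was fitted to log2(TPM + 0.5) of 14947 genes (mean TPM of 1 or more), with a mean per group over all 12 libraries (8 residual degrees of freedom) and a mean-variance trend. Fold changes on this scale understate those of low genes. All p values are two-sided, adjusted by Benjamini-Hochberg over every tested gene, with a threshold of 0.05. The fit was tested on simulated data in which each gene varied independently of the others. Shifts shared by many genes of a library, as seen here, were not part of that simulation. All 10 markers are named in each comparison, and other genes by smallest p in their list or by likeness to the markers. Markers and lists were chosen with earlier results of these data known, and no p is given for a list. Alternatives were other pseudocounts (0.1 and 1), no filter, 2 rescalings, no trend, library weights, a replicate block, fits of 2 groups and each library left out. A further one, chosen after the data were seen, left out the 3 libraries that stood apart.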

Additional observations from a re-analysis of the deposited data

How the results depend on the processing

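No marker passed the limma test after adjustment in any of the 7 comparisons under any alternative. The smallest limma adjusted p was 0.0965, for Dsp in the interaction. It came from leaving out the 3 libraries that stood apart, a setting chosen after the data were seen. The median log2 fold change of the markers moved by less than the within-group SD of their mean (0.192) in every alternative but one, the interaction without standard saline replicate 2 (0.29; range over single libraries left out, 0.29 to 0.59). Signs of single markers changed in 44 of 1510 values, none of them called. For ethanol in standard cages 6 markers had an unadjusted limma p under 0.05 with every pseudocount, scaling and filter, and 4 to 6 with 1 library left out. The count for enrichment in saline mice was 1 to 6 with 1 library left out. Same-numbered libraries of different groups did not deviate together more than others did. Their correlations, after removal of group means, ran from -0.15 to 0.06, against -0.09 to 0.12 for other pairs. These values cannot show whether the numbers mark a litter or a batch. With the replicate block 0 markers passed in each comparison, the median for ethanol in standard cages was -0.49, and the markers at an unadjusted p under 0.05 were the same 6; Npnt for enrichment averaged over exposure, and Plk5 for enrichment in saline mice, no longer had one. With 3 libraries a group and unknown depth, small differences in the low markers (Tdo2, Npnt) were not resolved.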
